A study of Mus musculus with 2 samples.

Results

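5 genes that signal to or restrain lymphocytes, Il15, Il15ra, Il7, Il33 and Il18bp, were followed in endothelial cells (ECs) of mouse tumours, as the rows of those names among the 17139 genes listed for both libraries. The droplet-based scRNA-seq data comprised 1 library of ECs from a Lewis lung carcinoma (LLC) tumour of an adult C57BL/6 mouse injected with PBS and 1 from such a tumour injected with cGAMP, the cyclic dinucleotide that activates STING. The injection was made into the tumour, with 14 µg of cGAMP in 70 µl of PBS or with the same volume of PBS. Live cells positive for CD31 and negative for the leucocyte protein CD45 were sorted 24 h later, although a supplementary legend of the study gives 6 h. LLC is an established carcinoma line that grows in C57BL/6 mice, and all ECs therefore came from implanted tumours. Each library came from 1 mouse. Differences between the libraries thus have no replicate check, no test was possible, and every interval below is a 95% interval that covers counting error only.

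IL-15 keeps natural killer cells and memory CD8 T cells alive and is unusual in being held on the surface of the producing cell by the α chain of its receptor, the product of Il15ra, which presents it to lymphocytes that carry the β chain (Il2rb) and the shared γ chain (Il2rg). IL-7 maintains naive T cells and is made by stromal and lymphatic cells rather than by leucocytes. IL-33, stored in nuclei of barrier and vascular cells, activates type 2 lymphocytes through ST2 (Il1rl1) when it is released, whereas IL-18 binding protein, encoded by Il18bp, is a soluble decoy that neutralises IL-18, a stimulus of natural killer and T cells. Il18bp is therefore the antagonist of the group, not a supporting factor.

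The PBS library held 2517 ECs with a median of 29780 unique molecular identifiers (UMIs) per cell, and the cGAMP library 1340 ECs with a median of 41177. A median of 4.49% and 2.87% of UMIs was mitochondrial, and 1 barcode occurred in both libraries. A level is given in CPM, the UMIs of a gene from all cells considered per 1000000 UMIs of those cells. Where 2 values stand together, the first is that of the PBS library. Pecam1, which defines ECs, was found in 99.7% and 99.6% of cells, and Ptprc, which marks leucocytes, gave 23 and 38 UMIs in all. Both values partly follow from the sort and from the authors' removal of clusters without Pecam1, and are no independent check of purity. The 3 listed markers of T or NK cells summed to 0.272 and 0.174 CPM and the 2 of B cells to 1.11 and 1.199 CPM. The summed level of 8 macrophage or monocyte markers was 47.9 and 101 CPM, of which Cd14, a leading gene of the stalk-like ECs, gave 32.5 and 67.9 CPM. The 4 neutrophil markers gave 0.847 and 17.1 CPM, the 6 fibroblast markers 8.30 and 3.46 CPM, and the 3 tumour or epithelial markers 2.09 and 0.395 CPM. In the 2471 and 1146 cells left without those that held 3 or more UMIs of the lists of T or NK, B, neutrophil or fibroblast markers, of Ptprc, or of Lyz2 and the C1q genes, a filter chosen after seeing the data, none of the 5 ratios below left its interval.

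Transcripts of Il18bp were much more abundant in the cGAMP-treated ECs, those of Il15, Il15ra and Il7 moderately so, and those of Il33 were scarce in both libraries. The direction of Il7 turned, to a log2 ratio of -0.31 (-1.77 to 0.95), and the interval of Il15ra included 0 (0.42, -0.03 to 0.85), in the 945 and 286 cells left without any that held 3 or more UMIs of any list of other cell types. Il18bp, on chromosome 7 of GRCm38 from 102014885 to 102018690 on the minus strand, was at 11.8 CPM in the ECs given PBS (exact Poisson interval 11.1 to 12.5, 1088 UMIs) and 62.9 CPM in those given cGAMP (60.9 to 64.8, 3983 UMIs). The level of the decoy was thus 5.32-fold higher (4.97 to 5.69), a log2 ratio of 2.41, and the intervals of the levels lay far apart. Among the 9509 genes that reached 5 CPM in at least 1 library, 0.326% had a higher ratio. Numa1, which overlaps the end of Il18bp on the other strand, was lower in the cGAMP library, at 34.4 against 48.1 CPM.

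**Figure D1:**
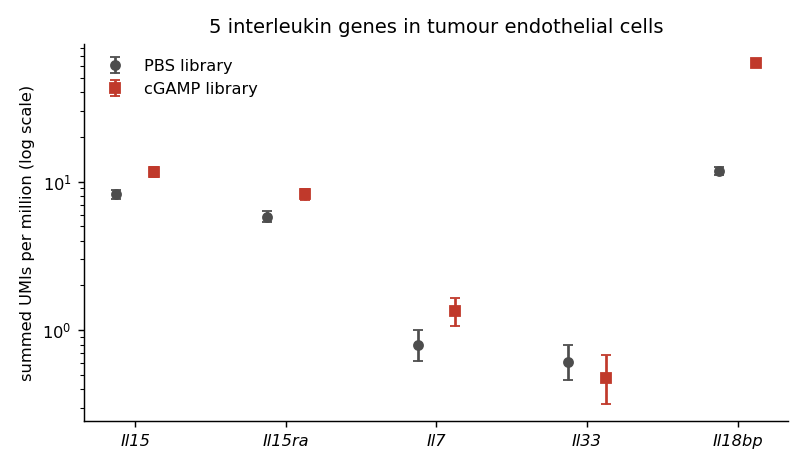
Summed CPM (log scale) of the 5 genes in the PBS library (grey circles) and the cGAMP library (red squares), with exact Poisson 95% intervals for counting error. Il18bp lay at 11.8 and 62.9 CPM, Il15 and Il15ra lay apart by less than 2-fold, and Il7 and Il33 stayed under 2 CPM.

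The ligand IL-15 and its presenting chain differed between the libraries to a like extent. Il15, on chromosome 8 from 82331632 to 82403222 on the minus strand, was at 8.21 CPM (7.64 to 8.82, 756 UMIs) and 11.6 CPM (10.8 to 12.5, 737 UMIs), a log2 ratio of 0.50 (0.35 to 0.65). Il15ra, on chromosome 2 from 11705290 to 11734317 on the plus strand, was at 5.81 CPM (5.33 to 6.32, 535 UMIs) and 8.24 CPM (7.55 to 8.98, 522 UMIs), also a log2 ratio of 0.50 (0.33 to 0.68). Among all genes with at least 5 CPM, whose median log2 ratio was -0.08, 5.99% had a higher ratio than Il15 and 5.96% a higher one than Il15ra. Lyz2, a leucocyte transcript that ECs should lack, was at 5.21 and 12.6 CPM, a like level with a larger log2 ratio of 1.28, and without the cells richest in it, by the filter above, the log2 ratio was 0.51 (0.35 to 0.66) for Il15 and 0.44 (0.25 to 0.63) for Il15ra. Il7, on chromosome 3 from 7569994 to 7613760 on the minus strand, was at 0.793 CPM (0.621 to 0.997, 73 UMIs) and 1.34 CPM (1.07 to 1.66, 85 UMIs), a log2 ratio of 0.76 (0.29 to 1.23). Il33, on chromosome 19 from 29925114 to 29960718 on the plus strand, was at 0.608 CPM (0.459 to 0.790, 56 UMIs) and 0.473 CPM (0.319 to 0.676, 30 UMIs), and its log2 ratio of -0.36 (-1.05 to 0.30) had an interval that included 0.

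Only Il18bp of the 3 members with at least 5 CPM was past 2-fold. Across all 9509 such genes 1.82% were at least 2-fold higher and 1.70% at least 2-fold lower in the cGAMP library. Il7 and Il33 did not reach 5 CPM in either library and are described by their UMIs.

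Ranked by the share of cells with a UMI, the 5 genes kept within each library the order of their CPM. The ratios between the libraries did not keep their order. For these shares each cell was thinned to 5000 UMIs because the libraries differed in depth. Shallower cells, 70 and 13 in number, were not counted. Il18bp was detected in 6.58% (5.63 to 7.64) and 24.7% (22.4 to 27.1) of the thinned ECs, with exact binomial intervals, against 27.7% and 74.4% without thinning. Cells with 5 or more UMIs numbered 22 and 316, so Il18bp was spread over many ECs and its 5 richest cells gave 3.68% and 3.16% of its UMIs. Il15 was found in 3.11% and 6.48% of thinned cells, Il15ra in 3.07% and 3.92%, Il7 in 0.368% and 0.528%, and Il33 in 0.245% and 0.377%. Without thinning, the shares were 20.5% and 29.6% for Il15, 18.2% and 25.9% for Il15ra, 2.74% and 5.82% for Il7, and 1.87% and 1.64% for Il33. Lyz2 was found in 2.37% and 5.65% of thinned cells and in 13.5% and 38.4% of all cells. The thinned share of Il15 thus lay above that of Lyz2 in both libraries. That of Il15ra lay above it in the PBS library and under it in the cGAMP library. In each case the intervals overlapped. Whether Lyz2 gives a background that holds for other genes was not tested. No difference is read from the shares of Il15 and Il15ra or from those of Il7 and Il33.

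How the genes vary among ECs was examined after clustering again, without the members, their pathway genes or genes that differed 2-fold between the libraries. The 8 clusters are given by their leading genes. Gal/Chga (694 PBS-treated and 280 cGAMP-treated cells) and Pgf/Ankrd1 (104 and 59) carried tip-like markers, Gja5/Gja4 (567 and 238) arterial, Ube2c/Cenpf (498 and 182) proliferative, and Ackr1/Selp (335 and 326) stalk-like or venous markers. Ung/Hells (210 and 153), Slc6a6/Lpl (63 and 51) and Igfbp5/Ctsh (46 and 51) stayed unnamed. In Ung/Hells the leading genes act in DNA replication, and 9 of 10 stalk-like markers were raised in Igfbp5/Ctsh. Rebuilt clusters need not be those of the study.

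Il18bp was higher in the cGAMP library in all 8 clusters, by 3.81-fold to 11.2-fold, and the lower bound of the log2 ratio was 1.69 or more in each. In the PBS library it was highest in Ackr1/Selp, at 22.7 CPM (19.6 to 26.3), and in Igfbp5/Ctsh, at 20.3 CPM (12.6 to 31.0), and lowest in Pgf/Ankrd1, at 7.42 CPM (4.89 to 10.8), and Ube2c/Cenpf, at 7.67 CPM (6.58 to 8.88). With cGAMP Igfbp5/Ctsh, at 104 CPM (87.7 to 122), and Ackr1/Selp, at 90.5 CPM (85.7 to 95.7), again ranked highest, with overlapping intervals. Proliferative Ube2c/Cenpf ECs were lowest at 39.7 CPM (36.1 to 43.5), and Gal/Chga followed at 42.2 CPM (38.8 to 45.7).

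**Figure D2:**
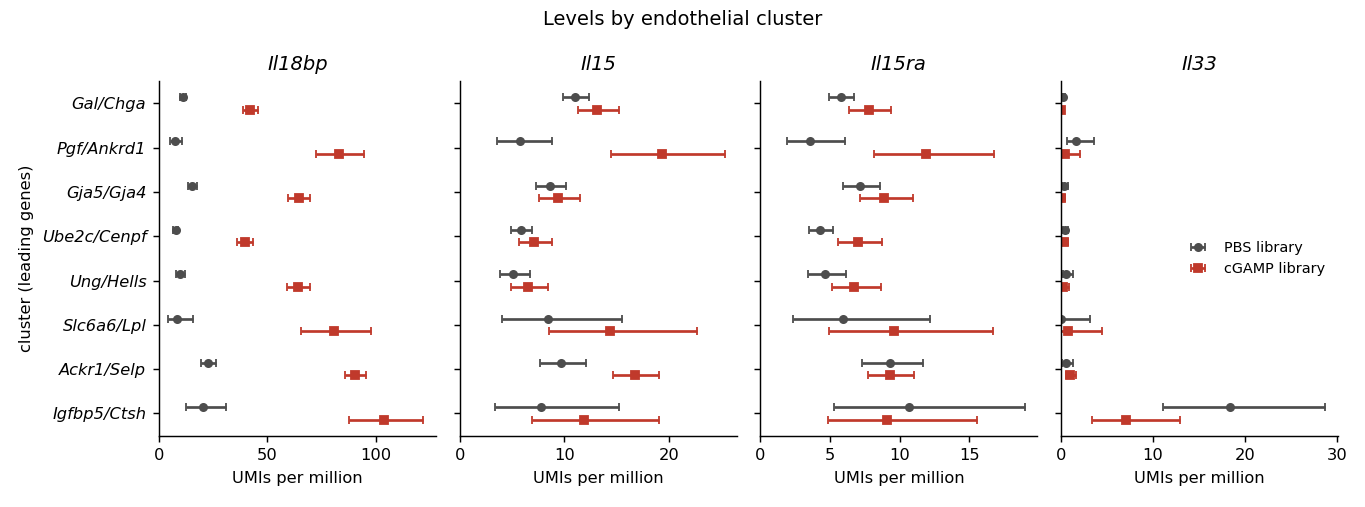
Summed CPM of Il18bp, Il15, Il15ra and Il33 in each EC cluster (rows, named by leading genes) in the PBS library (grey circles) and cGAMP library (red squares), with exact Poisson 95% intervals. Il18bp lay higher with cGAMP in each of the 8 rows, and Il33 was highest in Igfbp5/Ctsh in both libraries.

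The 2 tip-like clusters differed for the decoy and the ligand by more than counting error. In Pgf/Ankrd1, whose leading genes include Bnip3, Adm and Egln3 of the hypoxia response, Il18bp was at 7.42 and 83.0 CPM, a log2 ratio of 3.48 (2.90 to 4.12). In Gal/Chga it was at 11.1 and 42.2 CPM, a log2 ratio of 1.93 (1.73 to 2.13), and the intervals of these 2 ratios did not overlap. Il15 was at 5.77 CPM (3.57 to 8.82, 21 UMIs) in PBS-treated and 19.4 CPM (14.5 to 25.4, 52 UMIs) in cGAMP-treated Pgf/Ankrd1 cells, a log2 ratio of 1.75 (0.99 to 2.55), against 0.25 (-0.02 to 0.52) in Gal/Chga. Il15ra was at 3.57 CPM (1.90 to 6.11, 13 UMIs) and 11.9 CPM (8.15 to 16.8, 32 UMIs), a log2 ratio of 1.74 (0.77 to 2.79), against 0.43 (0.06 to 0.79) in Gal/Chga, with intervals that just overlapped. All 3 genes had their largest ratio among the 8 clusters in Pgf/Ankrd1, a cluster of few cells, but its intervals overlapped those of Slc6a6/Lpl and Igfbp5/Ctsh for each gene, of Ung/Hells for Il18bp and Il15ra, of Ackr1/Selp for Il15, and of Gal/Chga and Ube2c/Cenpf for Il15ra.

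**Figure D3:**
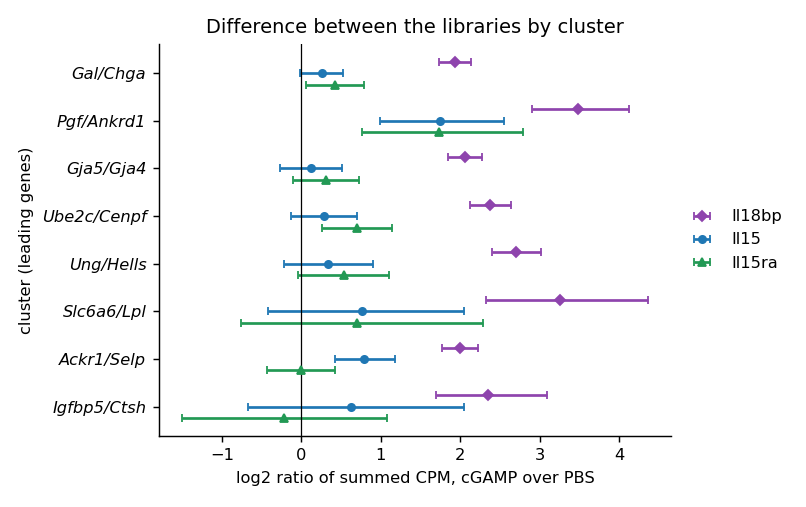
Log2 ratio of summed CPM, cGAMP over PBS, of Il18bp (purple diamonds), Il15 (blue circles) and Il15ra (green triangles) in each EC cluster, with exact 95% intervals for counting error and a line at 0. Il18bp ranged from 1.93 to 3.48, and the ratio of each gene was largest in Pgf/Ankrd1.

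Il15 was higher with cGAMP in 8 of 8 clusters, but its interval lay above 0 only in Ackr1/Selp and Pgf/Ankrd1. Stalk-like Ackr1/Selp ECs had 9.69 CPM (7.66 to 12.1) and 16.8 CPM (14.7 to 19.1), a log2 ratio of 0.79 (0.42 to 1.18). Il15ra, in contrast, was at 9.32 CPM (7.33 to 11.7) and 9.27 CPM (7.75 to 11.0) in the same cells, a log2 ratio of -0.01 (-0.43 to 0.42). The presenting chain was already high in stalk-like PBS-treated ECs, 0.77 on the log2 scale above the other PBS-treated ECs (0.40 to 1.12). It was higher with cGAMP in 6 of 8 clusters, and its interval lay above 0 in Gal/Chga, Ube2c/Cenpf and Pgf/Ankrd1. Proliferative Ube2c/Cenpf ECs had 4.31 CPM (3.51 to 5.24) and 7.01 CPM (5.56 to 8.73) of Il15ra. In each of the 8 clusters the intervals of the Il15 and Il15ra ratios overlapped.

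PBS-treated Gal/Chga ECs held 306 of the 756 Il15 UMIs of their library, at 11.1 CPM (9.84 to 12.4), the highest PBS level among the 8 clusters, with an interval that overlapped those of Gja5/Gja4, Ackr1/Selp, Slc6a6/Lpl and Igfbp5/Ctsh. This place depended on the clustering: with all 2500 variable genes, Il15 in the tip-like ECs of the PBS library was at a log2 ratio of -0.45 to the other ECs rather than 0.56, and in stalk-like ECs at 2.17. Among the 10 leading genes of Gal/Chga were Rsad2, which interferon induces, and the haemoglobin genes Hba-a1, Hba-a2 and Hbb-bs, of which Hbb-bs had 98.0% of its PBS UMIs in 5 cells. Il15 was therefore set beside an interferon score.

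The score was the share of the UMIs of a cell that came from 35 interferon-responsive genes, none of them a member. In 4 equal bins of cells within each library, Il15 went from 4.21 CPM in the lowest to 17.0 CPM in the highest bin of PBS-treated cells and from 5.27 to 26.3 CPM in cGAMP-treated cells. Il18bp went from 4.88 to 24.6 CPM and from 23.3 to 100.4 CPM, Il15ra from 4.42 to 7.71 CPM and from 5.27 to 13.6 CPM, and Il7 from 0.505 to 1.57 CPM and from 0.888 to 2.27 CPM. Il33 did not follow the score, with 0.757 and 0.269 CPM in the outer bins of the PBS library and 0.508 and 0.299 CPM in those of the cGAMP library. A bin is a range of a score and not a cell type, and 445 PBS-treated and 227 cGAMP-treated cells lay within 5% of a limit between bins. The share of stalk-like ECs also differed between bins, at 8.10% and 11.0% in the outer bins of the PBS library and 11.6% and 37.3% in those of the cGAMP library.

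A large part of the Il15 UMIs came from few cells of very high score. The 79 PBS-treated ECs with at least 1.2% of their UMIs on the interferon genes, 3.14% of the cells, held 22.4% of all Il15 UMIs of the library, 12.6% of the Il18bp UMIs and 5.98% of the Il15ra UMIs. In the cGAMP library 219 ECs, 16.3% of the cells, reached this score and held 45.9% of the Il15, 30.03% of the Il18bp and 31.8% of the Il15ra UMIs. PBS-treated ECs of this range had 60.7 CPM of Il15 (51.9 to 70.5), compared with 4.29 CPM (3.65 to 4.99) in the 1011 PBS-treated ECs with a score under 0.15%. Of the 79 cells, 54.4% were Gal/Chga ECs.

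At a like score the 2 libraries stood in opposite order for the ligand and for the decoy. Between 0.6% and 1.2%, Il15 was at 20.3 CPM (16.1 to 25.2) in 104 PBS-treated and 10.6 CPM (9.30 to 12.0) in 497 cGAMP-treated ECs, a log2 ratio of -0.94 (-1.31 to -0.56). In the same cells Il18bp was at 35.2 CPM (29.6 to 41.4) and 78.5 CPM (75.0 to 82.2), a log2 ratio of 1.16 (0.91 to 1.42). At 1.2% and more, Il15 was at 60.7 and 30.9 CPM, a log2 ratio of -0.98 (-1.25 to -0.70), and Il18bp at 49.2 and 109 CPM, a log2 ratio of 1.15 (0.89 to 1.42). The median scores of the latter cells were 1.75% and 1.47%, which is less alike than the 0.787% and 0.848% of the range before. Between 0.3% and 0.6% the log2 ratios were -0.65 (-1.04 to -0.25) for Il15 and 1.02 (0.79 to 1.25) for Il18bp, and between 0.15% and 0.3%, with 101 cGAMP-treated ECs, -0.60 (-1.34 to 0.06) and 0.52 (0.12 to 0.90). Il15ra showed no such difference, with log2 ratios of 0.11 (-0.31 to 0.55), -0.15 (-0.68 to 0.41) and 0.40 (-0.15 to 0.99) in the 3 ranges from 0.3% up. Cells of like score also differed in cluster. Between 0.6% and 1.2%, 8.65% and 31.4% were stalk-like Ackr1/Selp ECs, and 35.6% and 16.5% were Gal/Chga ECs. At 1.2% and more these shares were 8.86% and 33.8%, and 54.4% and 25.6%. The treatment moved the score itself, and the ranges are therefore a description of the cells in them.

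**Figure D4:**
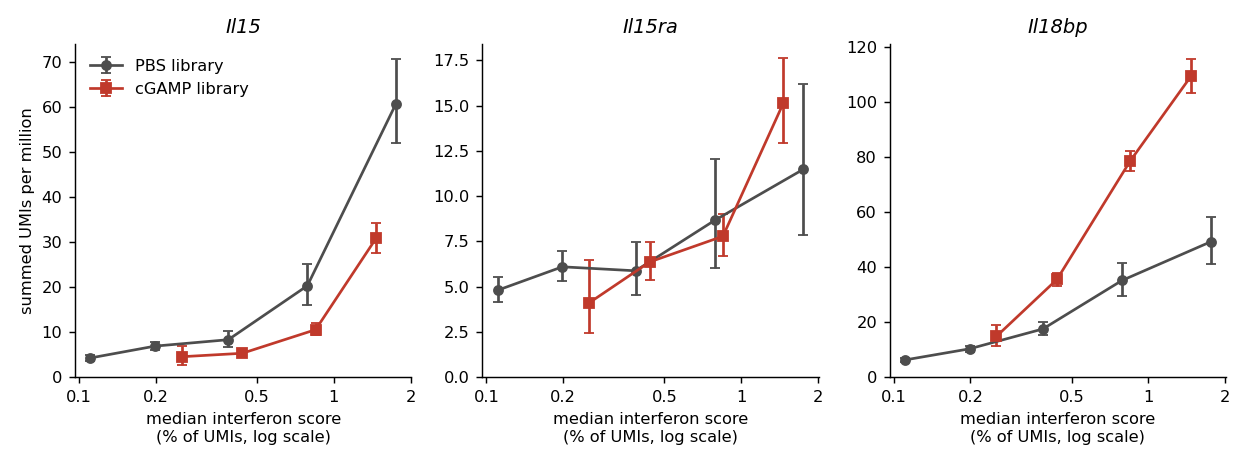
Summed CPM of Il15, Il15ra and Il18bp against the median interferon score (percent of UMIs on 35 interferon-responsive genes, log scale) in ranges of the score that held at least 20 cells, in the PBS library (grey circles) and the cGAMP library (red squares), with exact Poisson 95% intervals. At like scores above 0.3% the cGAMP library lay lower for Il15 and higher for Il18bp, and the libraries overlapped for Il15ra.

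The score was made up of partly different genes in the 2 libraries. In cells of at least 1.2%, Rsad2 gave 12.6% and 3.48% of the score, Bst2 10.2% and 23.4%, and Irf7 2.98% and 7.18%. With Bst2, Isg15, Rsad2, Iigp1 and Irf7 left out, the score was cut anew, and its 3 upper ranges began at 0.2%, 0.4% and 0.8%. Il15 still lay lower in the cGAMP library in these ranges, with log2 ratios of -0.64, -0.65 and -0.41. Il18bp lay higher, with 1.46, 1.31 and 1.24. The highest range held 46 and 75 cells, and its Il15 ratio (-0.73 to -0.09) lay outside the interval of the highest range of the full score. With the reduced score Il15ra was higher in the highest range, at 13.8 and 26.1 CPM, a log2 ratio of 0.92 (0.25 to 1.64). With the full score, in its ranges from 0.3% up, Il15 had log2 ratios of -0.59 (-1.29 to 0.09), -1.05 (-1.76 to -0.32) and -0.75 (-1.14 to -0.36) within the Gal/Chga cluster alone. Il18bp had 0.37 (-0.10 to 0.86), 0.39 (-0.03 to 0.83) and 1.12 (0.75 to 1.51) there, so that 2 of these 3 intervals included 0. In all other clusters together Il15 had log2 ratios of -0.60, -0.94 and -0.72 and Il18bp of 1.07, 1.36 and 1.02, each with an interval clear of 0. The score ranges and these comparisons were chosen after the bins had been seen.

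How often Il15 and Il15ra were found in the same cell depended on depth. Thinned cells seldom held a UMI of either gene, so few could hold both. After thinning, 2 of 76 PBS-treated ECs with an Il15 UMI also had one of Il15ra (2.63%, exact interval 0.320 to 9.19), compared with 3.08% of those without. In the cGAMP library these were 4 of 86 (4.65%, 1.28 to 11.5) and 3.87%. Without thinning, 148 PBS-treated and 139 cGAMP-treated ECs had UMIs of both, which was 28.7% and 35.1% of the Il15 cells against 15.5% and 22.0% of the others. The unthinned shares are not set at a like depth, and cells with more UMIs tend to hold more of every gene. The thinned shares rest on 2 and 4 cells with both genes, too few to tell whether they occurred together beyond depth.

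Il33 was concentrated in a small cluster. The 46 PBS-treated Igfbp5/Ctsh ECs held 19 of 56 Il33 UMIs, in 11 cells, at 18.4 CPM (11.1 to 28.7), and the 51 cGAMP-treated ones held 10 of 30 UMIs, in 5 cells, at 7.01 CPM (3.36 to 12.9). The log2 ratio in these cells was -1.39 (-2.66 to -0.21), which rests on 19 and 10 UMIs. In the other 7 clusters Il33 was at 1.65 CPM or less in both libraries, and in stalk-like Ackr1/Selp ECs it gave 4 and 13 UMIs. No Il33 UMI was found in the 280 cGAMP-treated Gal/Chga ECs, which allows up to 0.216 CPM at 3 counts, or in the 238 Gja5/Gja4 ECs, which allows up to 0.306 CPM.

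The Igfbp5/Ctsh cluster was venous by its markers, and in the PBS library it also held Prox1, which encodes the transcription factor that sets lymphatic identity. Of 185 Prox1 UMIs in the PBS library 139 lay in the cluster, in 18 of 46 cells, and 7 of the 11 Il33 cells there had a Prox1 UMI. In the cGAMP library 24 of 63 Prox1 UMIs lay there, in 9 of 51 cells, and none of its 5 Il33 cells had one. Other lymphatic markers were scarce in the PBS-treated cells of the cluster, with 2 UMIs of Lyve1, 19 of Flt4 and none of Pdpn or Ccl21a, whereas Selp, a venous gene, was found in 45 of 46. The cluster is therefore given by its leading genes only.

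Il7 was low in every cluster. In the PBS library it was at 1.08 CPM (0.731 to 1.55, 30 UMIs) in Gal/Chga and 0.302 CPM (0.121 to 0.621, 7 UMIs) in Ube2c/Cenpf, and in the cGAMP library at 2.05 CPM (1.38 to 2.95, 29 UMIs) in Ackr1/Selp and 0.701 CPM (0.303 to 1.38, 8 UMIs) in Ube2c/Cenpf. Proliferative ECs lay below the other ECs, with log2 ratios of -1.67 (-3.04 to -0.54) in the PBS and -1.08 (-2.34 to -0.03) in the cGAMP library. Il7 was higher with cGAMP in 7 of 8 clusters, but the interval of the ratio included 0 in each of them, and it had no UMI in Slc6a6/Lpl in either library.

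The receptors through which these cytokines act on lymphocytes were nearly absent from the ECs. Il2rb gave 3 UMIs in the PBS library and none in the cGAMP library, Il7r 4 and 17, Il1rl1 12 and 14, and Il18rap 66 and 42. The γ chain Il2rg, which several cytokine receptors share, was instead abundant, at 67.2 CPM (65.5 to 68.9) and 82.3 CPM (80.1 to 84.6). Il18 itself, the target of the decoy, gave 6 and 41 UMIs, or 0.0652 and 0.647 CPM.

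The other genes of these pathways were taken from 8 lists, read against the 1.82% and 1.70% of all genes that were past 2-fold. Of the 4 genes of the IL-15 and IL-2 family that reached 5 CPM none was past 2-fold, and their median log2 ratio was 0.46. Of the 3 of the IL-7 and TSLP list none was, with a median of 0.29, and of the 3 of the IL-33 and IL-1 family none was, with a median of -0.01. In the IL-18 list Il18bp alone of 5 was past 2-fold. All 5, Il18bp included, were higher with cGAMP, with a median of 0.70, against 40.4% of all genes with at least 5 CPM. The other 4 were Casp1, the protease that matures IL-18, at 7.60 and 13.8 CPM, its adaptor Pycard at 20.7 and 33.6 CPM, the related Casp4 at 57.7 and 90.3 CPM, and Gsdmd, whose product forms the pores of release, at 23.9 and 36.6 CPM.

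**Figure D5:**
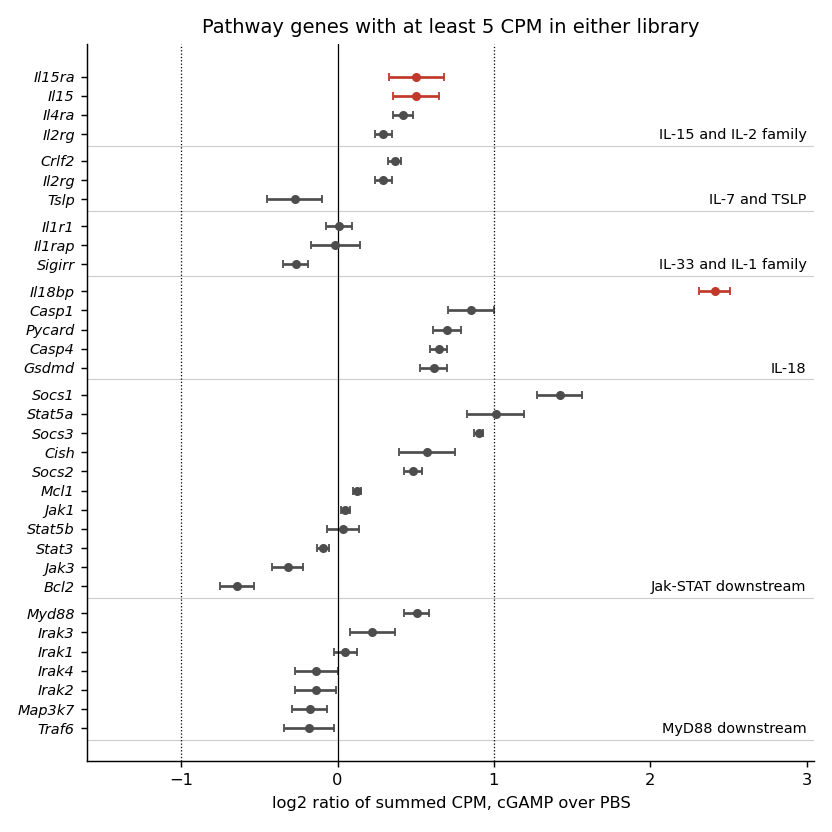
Log2 ratio of summed CPM, cGAMP over PBS, of those genes of 6 pathway lists that reached 5 CPM, with exact 95% intervals for counting error. The members are red, and dotted lines mark 2-fold. Il18bp, Stat5a and Socs1 lay past 2-fold, and the other IL-18 pathway genes lay between 0.61 and 0.85.

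Downstream of the receptors, 2 of 11 Jak-STAT genes were past 2-fold, both upwards, with a median of 0.12 over the list. These were Stat5a, which relays IL-7 and IL-15 signals, at 4.65 and 9.37 CPM, a log2 ratio of 1.01, and its feedback inhibitor Socs1, at 6.64 and 17.8 CPM, a log2 ratio of 1.42. None of the 7 MyD88 pathway genes, which serve IL-33 and IL-18 receptors, was past 2-fold, and their median was -0.14. Among 6 other growth and survival factors of lymphocytes, Il6 was higher, at 32.9 and 92.8 CPM, and Il16, a CD4 ligand, lower, at 25.5 and 9.50 CPM, and these 2 alone were past 2-fold. Genes under 5 CPM differed in both directions. Il27 gave 21 and 201 UMIs and Il1b 53 and 243, whereas Il34 gave 128 and 26 and Il12a 31 and 10.

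Of 8 interferon regulatory genes Irf7 and Batf2 were past 2-fold, with log2 ratios of 2.98 and 2.17, and the median was 0.70. Across the 16 combinations of cluster and library, on log2(CPM + 5), the patterns most like that of Il18bp among 6045 genes with at least 20 CPM were those of Ifitm3, H2-T22 and Tapbp, with Pearson r of 0.98, 0.98 and 0.97. The 16 points share 2 libraries, and r is a description. With the mean of each library subtracted the nearest were Ifitm3, H2-T22 and Ddx58, at 0.89, 0.87 and 0.87. Nearest to Il15 were Tmbim4, Gbp2 and Parp14, at 0.88, 0.87 and 0.86, and, with library means subtracted, Baz2a, Gbp2 and Tmbim4, at 0.84, 0.84 and 0.83. Ddx58, Gbp2 and Parp14 were also part of the interferon score. For Il18bp and Irf7, r was 0.85 as is and -0.09 with library means subtracted. For Il18bp and Irf1, another of the interferon regulatory genes, it was 0.81 and 0.84.

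For Il15ra the nearest were Sp110, Pla2g16 and Shisa5, at 0.91, 0.86 and 0.86, and, with library means subtracted, Etnk1, Sp110 and Lncpint, at 0.88, 0.87 and 0.85. The pattern of Il7 was nearest to Ctsb, Lgmn and Dok1, at 0.90, 0.85 and 0.84, and with library means subtracted to Ctsb, Sox4 and Dok1, at 0.91, 0.87 and 0.86. That of Il33, set by the Igfbp5/Ctsh cluster, was nearest to Wls, Nxn and Spats2, at 0.90, 0.89 and 0.87, and with library means subtracted to Wls, Map3k2 and Nxn, at 0.91, 0.89 and 0.89. Il7 and Il33 rest on few UMIs in most of the 16 points.

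Promoter sequence was searched in the 250 bases before the RefSeq starts of Il15ra (2 starts), Il18bp (1) and Il33 (2) on GRCm38.p6, on both strands. The core of the interferon-stimulated response element (GAAA, any 2 bases, GAAA), the core of the STAT site GAS (TTC, any 3 bases, GAA) and the NF-kB site were found in none of these 5 windows. Of 32851 promoter windows of the same length, 2.98% held the first, 7.02% the second and 7.25% the third. E-boxes (CANNTG), held by 66.2% of all windows, occurred 2 and 3 times before the Il15ra starts, 3 times before Il18bp, and 0 and 2 times before Il33. The Il18bp window, 7:102018233-102018482 on the minus strand, lies inside a longer transcript of the gene in GENCODE, whose start was not searched. The second windows of Il15ra, 2:11705462-11705711, and of Il33, 19:29945540-29945789, also lie within the annotated genes.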

How the data were processed

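The scRNA-seq data comprised 2 libraries of sorted tumour ECs, 1 per condition and 1 mouse each. The authors aligned reads to mm10 with Cell Ranger 3.0.0 and, with Seurat 3.1.1, removed cells with under 500 genes or over 10% mitochondrial UMIs, genes found in fewer than 3 cells, and clusters without Pecam1. The deposited unit is the natural log of 1 plus UMIs per 10000 in a cell. Exponentiation and division by each cell's lowest increment gave back the UMIs, and 100% of values fell within 0.01 of a whole number. The droplet kit is of version 3 in the methods and 2 in the labels.

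The 5 members, the gene lists and the alternatives were chosen with earlier results of these data known. Summed CPM has exact Poisson intervals, ratios have exact conditional binomial intervals and shares Clopper-Pearson intervals, all at 95% and for counting error only. A scaling by the median gene would raise every log2 ratio by 0.08. The ratio and thinning code was tested on simulated counts. For clustering, Seurat 5.3.0 (R 4.3.3) was run with the 2500 variable genes, integration anchors and 30 principal components of the methods at resolution 0.5, which the text does not state, leaving 1777 genes once the members, list genes and genes that differed 2-fold between the libraries were removed. A cluster was named when 3 or more markers of 1 state alone were at least 2-fold raised and no other class had more markers among its 10 leading genes, thresholds set after the clusters were seen. No doublets were removed. Genes named are the members, list genes with at least 5 CPM and a 2-fold difference, receptors and partners, the 3 genes nearest in pattern to each member, and markers. The other IL-18 list genes, Il27, Il1b, Il34, Il12a, Irf1 and the genes of the score were named after their values were seen. Coordinates are from GENCODE vM21. Python 3.11.15, scipy 1.17.1 and matplotlib 3.10.9 were used.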

Additional observations from a re-analysis of the deposited data

How the results depend on the processing

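No paired analysis was possible because each group has 1 library, and leaving out a replicate was not possible for the same reason. Of 40 alternative values of the 5 ratios of summed CPM, 37 kept the direction. For Il18bp the log2 ratio of 2.41 was 2.29 as the mean of per-cell CPM, 2.21 with cluster proportions held at the average and 2.16 in cells thinned to 5000 UMIs. In thinned cells the ratio was 0.93 for Il15, 0.30 for Il15ra and 0.40 for Il33, which rest on 91 and 94, 78 and 52, and 7 and 5 UMIs, so that depth limits these 3. Without cells with 3 or more UMIs of any list of other cell types, which left 945 PBS-treated and 286 cGAMP-treated ECs, it was 1.002 for Il15 and -0.31 (-1.77 to 0.95) for Il7, a reversal. Whether the listed markers in the cells left out came from ECs was not tested. With the narrower filter on leucocyte and fibroblast genes, which left 2471 and 1146 ECs and was added after seeing the data, none of the 5 ratios left its counting interval. The share of genes past the fold was 4.53% higher and 7.41% lower at 1.5-fold, and 2.73% were lower with a minimum of 1 CPM. Of 138 levels by state under other clusterings 129 kept the direction, and 4 that had lain clear of 0 reversed. These were Il15 in tip-like ECs of the PBS library, -0.22 at resolution 1.0 and -0.45 with all variable genes, Il15 in tip-like ECs of the cGAMP library, -0.088 with all variable genes, and Il15 in arterial ECs of the cGAMP library, 0.21 at resolution 1.0, where the main value was -0.36. Il33 in stalk-like ECs, -0.32 in the PBS library, was 2.69 at resolution 0.3 and 3.30 without integration. The causes were not tested.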
